A study of Mus musculus with 6 samples.

Results

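Syndecans and glypicans are cell-surface proteoglycans, proteins that carry long heparan sulfate chains. Syndecans span the plasma membrane and glypicans are held in it by a glycolipid anchor. Their chains bind growth factors, morphogens and matrix proteins, and in the developing kidney, heparan sulfate is needed for branching of the ureteric bud, the epithelium from which collecting ducts form. Here the 4 syndecan genes Sdc1 to Sdc4 were followed in whole mouse kidneys at embryonic day 12.5. With them were 5 glypican genes, Gpc1, Gpc2, Gpc3, Gpc4 and Gpc6, while Gpc5 was not included. The values described are those of all probe sets whose platform annotation gives exactly 1 gene symbol and that symbol is one of these 9 genes, which gave 9 of the 18193 genes so annotated and 23 of the 45037 probe sets that are not Affymetrix controls. There were 13 probe sets for syndecans and 10 for glypicans. The family was picked in part on the knockout and normal signals themselves, because the probe sets of Sdc4 moved in opposite directions, so the values of Sdc4 in this comparison are a description and carry no test.

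The tested kidneys came from mice with a beta-catenin (Ctnnb1) allele in which loxP sites surround exons 2 to 6, combined with the Hoxb7-Cre:Gfp transgene, whose promoter directs Cre recombinase to the ureteric bud (3 arrays, called knockout). They were set against kidneys of normal mice (3 arrays), for which no allele or transgene is named, so Cre and Gfp were present in the knockout group alone as far as the labels say. All were taken at embryonic day 12.5, dissected kidneys were allotted at random to 3 vials, and 1 µg of total RNA was amplified per sample. The number of animals per vial is not given in the sources used here, so the p-values cover the scatter of these vials, and some of it may be technical. The titles and source names separate the groups, while 1 of the label fields calls the knockout kidneys normal, and the directions below follow the titles.

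Values are MAS5 signal intensities, a linear brightness per probe set. Depth in the sense of read counts does not apply to arrays, and their number, 3 against 3, limits the precision. Array medians lay between 24.9 and 32.1. The targeted gene does not check the labels: its 3 probe sets differed by 0.09 to 0.16 on the log2 scale, the smallest limma adjusted p was 0.601, and whether their probes fall in the deleted exons is not analysed here. Kidney markers were present, with 16 of 17 measured ureteric bud genes, 12 of 12 cap mesenchyme genes and 11 of 11 stroma genes above the filter on dim probe sets. The exception, Hoxb7, read between 0.7 and 6.8 in knockout kidneys and between 3.1 and 7.6 in normal kidneys. Some arrays stood apart in markers of other tissues. The summed signal of 9 neural and chromaffin genes was 1300.3, 668 and 329.7 in knockout replicates 1 to 3, against 1763, 278 and 479.9 in normal replicates 1 to 3. The summed signal of 11 skeletal muscle genes was 1367, 7336 and 732 in knockout replicates 1 to 3 and between 619 and 683 in normal kidneys. The germ cell gene Dazl read between 4 and 17.2 in knockout kidneys, and 188.5, 7.4 and 7.1 in normal replicates 1 to 3. These muscle sums did not overlap between the groups, with each knockout array above each normal array. In knockout replicate 3, Actc1 read 277.3, against 188.3 to 241 in normal kidneys, and Des 222.7, against 134.3 to 222.3. Most other muscle genes, Myog at 9.5 and Ttn at 11.6 among them, lay within their normal ranges on that array. Myh3, at 21.9, lay below its normal arrays. The part of these marker lists in the differences of Sdc4 and other genes was not tested. Another list also separated the groups. The summed signal of 10 genes of the renal vesicle, the first epithelium of the nephron, was 3474, 2919 and 3106 in knockout replicates 1 to 3, against 4259, 4570 and 4221 in normal replicates 1 to 3, and its part in the differences of Sdc4 and other genes was not tested. In whole kidneys, fewer cells of a type and less RNA per cell cannot be told apart.

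The DNA just upstream of 3 members is shown here because the results turn on Sdc4, whose probe sets moved in opposite directions, and because Gpc3 and Gpc4 lie next to each other on the X chromosome. Each line gives the 250 bases before the gene's start on the gene's own strand, 5′ to 3′, from the RefSeq annotation of GRCm38.p6. Capitals mark GC boxes (GGGCGG, searched on both strands, so CCGCCC is the reverse form) and the TATA motif TATAA on the gene's strand. The Sdc4 sequence lies at chr2:164443189-164443438, that of Gpc3 at chrX:52613975-52614224 and that of Gpc4 at chrX:52164924-52165173, all on the minus strand.
Sdc4: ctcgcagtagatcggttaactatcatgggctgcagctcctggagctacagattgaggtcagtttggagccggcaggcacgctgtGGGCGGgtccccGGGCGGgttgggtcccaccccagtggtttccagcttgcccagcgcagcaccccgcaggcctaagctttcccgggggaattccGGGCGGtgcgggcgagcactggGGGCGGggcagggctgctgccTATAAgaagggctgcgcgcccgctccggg
Gpc3: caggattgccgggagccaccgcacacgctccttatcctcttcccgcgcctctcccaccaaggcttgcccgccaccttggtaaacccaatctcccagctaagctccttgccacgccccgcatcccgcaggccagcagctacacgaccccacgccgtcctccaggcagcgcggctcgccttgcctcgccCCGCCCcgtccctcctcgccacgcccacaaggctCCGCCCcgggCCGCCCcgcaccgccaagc
Gpc4: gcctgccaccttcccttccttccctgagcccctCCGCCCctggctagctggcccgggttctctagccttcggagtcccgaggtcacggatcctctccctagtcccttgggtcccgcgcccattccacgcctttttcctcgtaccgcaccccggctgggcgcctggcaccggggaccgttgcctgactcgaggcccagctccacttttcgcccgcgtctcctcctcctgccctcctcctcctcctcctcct

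Sdc4 has 4 GC boxes in this window and a TATA motif that begins 29 bases before the start. Gpc3 has 3 GC boxes and Gpc4 has 1. The other members with a sequence in the table were Sdc1, Sdc3 and Gpc2, so that 6 members were searched, and Sdc2, Gpc1 and Gpc6 were not. All 6 windows held a GC box, as did 32.7% of the 32851 windows of this length in the table, and 2 of them, Sdc4 and Sdc1, held TATAA, against 5255 of all 32851 windows. The window of Gpc2, chr5:138279938-138280187 on the minus strand, overlaps the gene's annotated span, chr5:138273657-138280026, so it is not wholly upstream. Beta-catenin acts on its target genes through TCF/LEF factors. Common forms of the TCF/LEF motif were searched on both strands. The first form was CTTTGAA and the next was CTTTGAT, another form was CTTTGTA and the last was CTTTGTT. These letters were in 0 of the 6 windows and in 14.8% of all windows, which says only that these letters are not in these windows.

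Sdc4 encodes syndecan-4, a receptor of focal adhesions that works with integrins on fibronectin and binds protein kinase C alpha inside the cell. Its brighter probe set, 1448793_a_at, read 115.9, 84.7 and 101 in knockout replicates 1 to 3, against 249.7, 221 and 355 in normal replicates 1 to 3. Each knockout array lay below each normal array. The group means were 100.5 ± 15.6 in knockout and 275 ± 70.8 in normal kidneys (SD, n = 3 each), a log2 difference of -1.43 (SE 0.20), or 2.70-fold lower. The dimmer probe set, 1417654_at, showed the reverse order. It read 90.5, 58.1 and 81.4 in knockout replicates 1 to 3, against 41, 28 and 39.3 in normal replicates 1 to 3, and again the groups did not overlap. The means were 76.7 ± 16.7 in knockout and 36.1 ± 7.07 in normal kidneys (SD, n = 3 each), a log2 difference of 1.08 (SE 0.25), or 2.12-fold higher.

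The opposite movement was present within each array. The log2 ratio of the brighter to the dimmer Sdc4 probe set was 0.36, 0.54 and 0.31 in knockout replicates 1 to 3, against 2.61, 2.98 and 3.18 in normal replicates 1 to 3. Since probe sets differ in how strongly they bind, the ratio itself has no meaning as an amount, but its difference of -2.52 (SE 0.19) between the groups is not altered by multiplying an array by any factor. The platform annotation ties both probe sets to the same transcript record. By Affymetrix's naming, a suffix of _a_at marks probes that fit several transcripts of the same gene, and where the probes of either set lie in Sdc4 is not analysed here, so the files do not tell which value follows the protein-coding message. The mean of the probe sets differed by -0.18 on the log2 scale. Leaving out any single array kept the brighter set between -1.58 and -1.24 and the dimmer set between 0.91 and 1.27. Of the measured neighbours of Sdc4 on chromosome 2, Matn4 stood at -0.54 (SE 0.34; limma adjusted p = 0.573) and Sys1 at -0.10 (SE 0.13; limma adjusted p = 0.798).

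**Figure D1:**
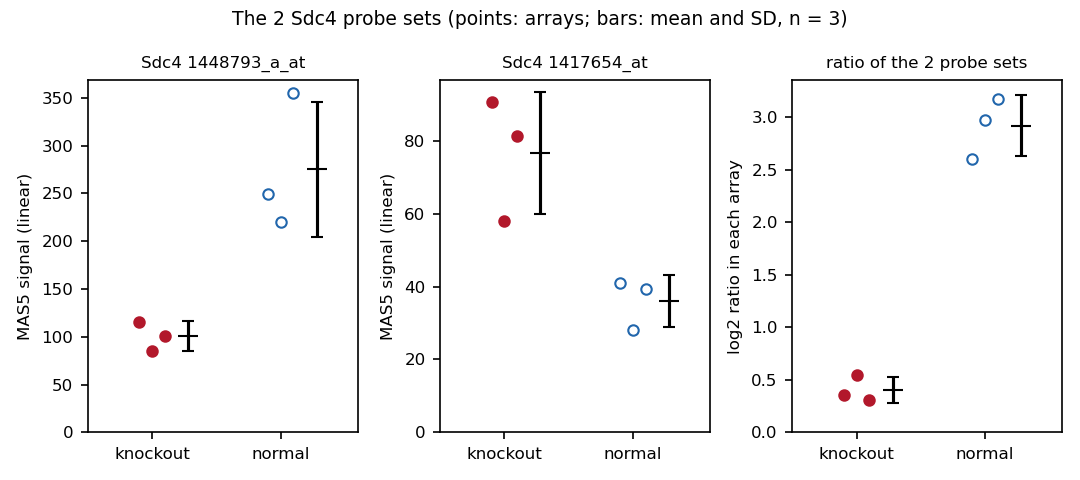
MAS5 signal (linear) of the 2 Sdc4 probe sets and the log2 ratio of the brighter to the dimmer one, for 3 knockout arrays (filled) and 3 normal arrays (open), with mean and SD as bars. Knockout arrays are lower for 1448793_a_at, at 84.7 to 115.9 against 221 to 355, and higher for 1417654_at, at 58.1 to 90.5 against 28 to 41.

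This pattern was set beside all 6085 genes with at least 2 kept probe sets, comparing the brightest with the next brightest of each gene. Opposite signs alone were common, at 38.9% of these genes, and 4 of the 6 members with several kept probe sets had them: Sdc1, Sdc3, Sdc4 and Gpc6. Opposite signs with both changes past 1 on the log2 scale were found in 1 gene, Sdc4, for which the family was picked. By the absolute difference in change between the probe sets Sdc4 ranked 10 of 6085, and the median over these genes was 0.17. In a limma fit of the within-array ratio, 0.247% of the genes passed an adjusted p of 0.05. Of the other 5 members, 0 passed in that fit, with 1, Sdc2, at an unadjusted p under 0.05, against 9.52% of all these genes. The Sdc2 sets differed in their change by 0.41 (SE 0.17; limma adjusted p = 0.522). Those of Sdc3 differed by 0.28 (SE 0.24), of Sdc1 by 0.27 (SE 0.21), of Gpc6 by 0.15 (SE 0.15) and of Gpc4 by -0.03 (SE 0.20). The smallest limma adjusted p among these 4 genes was 0.703. The within-array ratios of the groups overlapped for all 5, while they did not for Sdc4 or for 16.1% of all these genes.

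**Figure D2:**
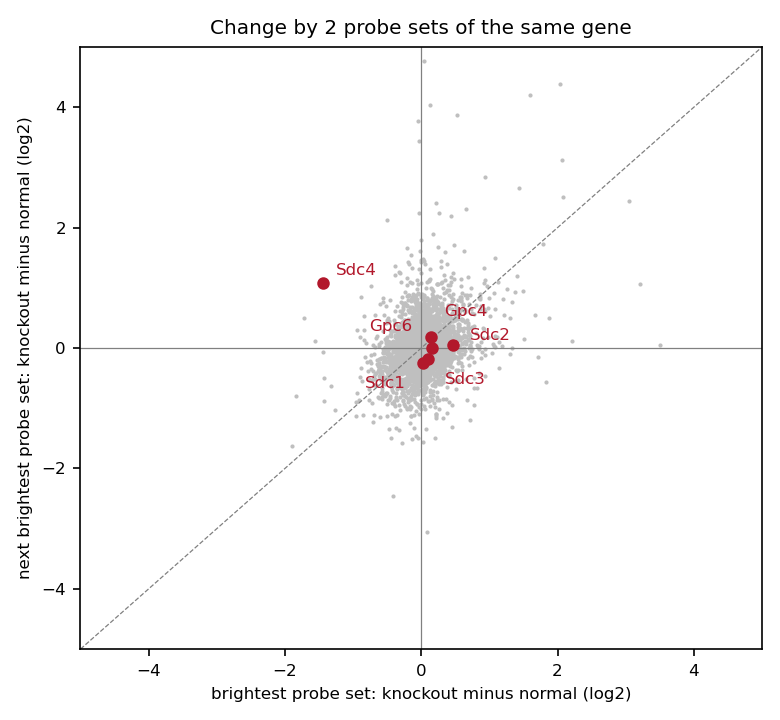
Knockout minus normal log2 difference of the brightest (x axis) and next brightest (y axis) kept probe set of each of 6085 genes, with members in red and equal change as the dashed line. Sdc4 lies at -1.43 and 1.08, away from the other 5 members, which sit near the centre of the cloud.

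Among the kept probe sets of other genes, the profiles most like those of Sdc4 over the 6 arrays were found by the mean absolute difference between log2 profiles, each centred on its own mean. For the brighter Sdc4 set these were Hspa13, a chaperone of the Hsp70 family (0.21), Ptchd4 (0.22) and AI506816 (0.22). Their own log2 differences were -1.16, -1.003 and -1.32. For the dimmer Sdc4 set they were Ddias (0.12), Dcaf5 (0.12) and the transcriptional regulator Arid5b (0.13), whose log2 differences were 1.24, 0.96 and 0.90. In all 23021 probe sets were compared. The profiles were picked by likeness over these same 6 arrays, so the directions of their differences follow from that choice. Ptchd4 read 11.7, 9.5 and 11 in knockout replicates 1 to 3, against 19.3, 19.7 and 25.9 in normal replicates 1 to 3. Its knockout signals lay under the filter level of 14.7.

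Over the 9 genes, 22 of the 23 probe sets passed the filter, a mean log2 signal above the 40th percentile, which corresponds to a signal of 14.7. Knockout and normal kidneys were compared with limma over all 27022 kept probe sets, with Benjamini-Hochberg adjustment and a threshold of 0.05. In that fit 0.588% of all kept probe sets passed, made up of 0.389% that were higher and 0.200% that were lower in knockout kidneys. Of the 20 kept probe sets outside Sdc4, 0 passed in the limma fit, 2 had an unadjusted p under 0.05 (11.5% of all kept probe sets did), and the groups did not overlap for 3 (17.9% of all kept probe sets). Of these 20, 11 were higher and 9 lower in knockout kidneys (51.9% of all kept probe sets were lower), with a median log2 difference of 0.04, beside -0.01 over all kept probe sets. All but 1 of them differed by less than 0.5 on the log2 scale. For 18 of the 20, leaving out a single array moved the difference by over 1.5 times or turned its sign, and the exceptions were Sdc2 1448545_at and Gpc6 1428774_at.

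**Figure D3:**
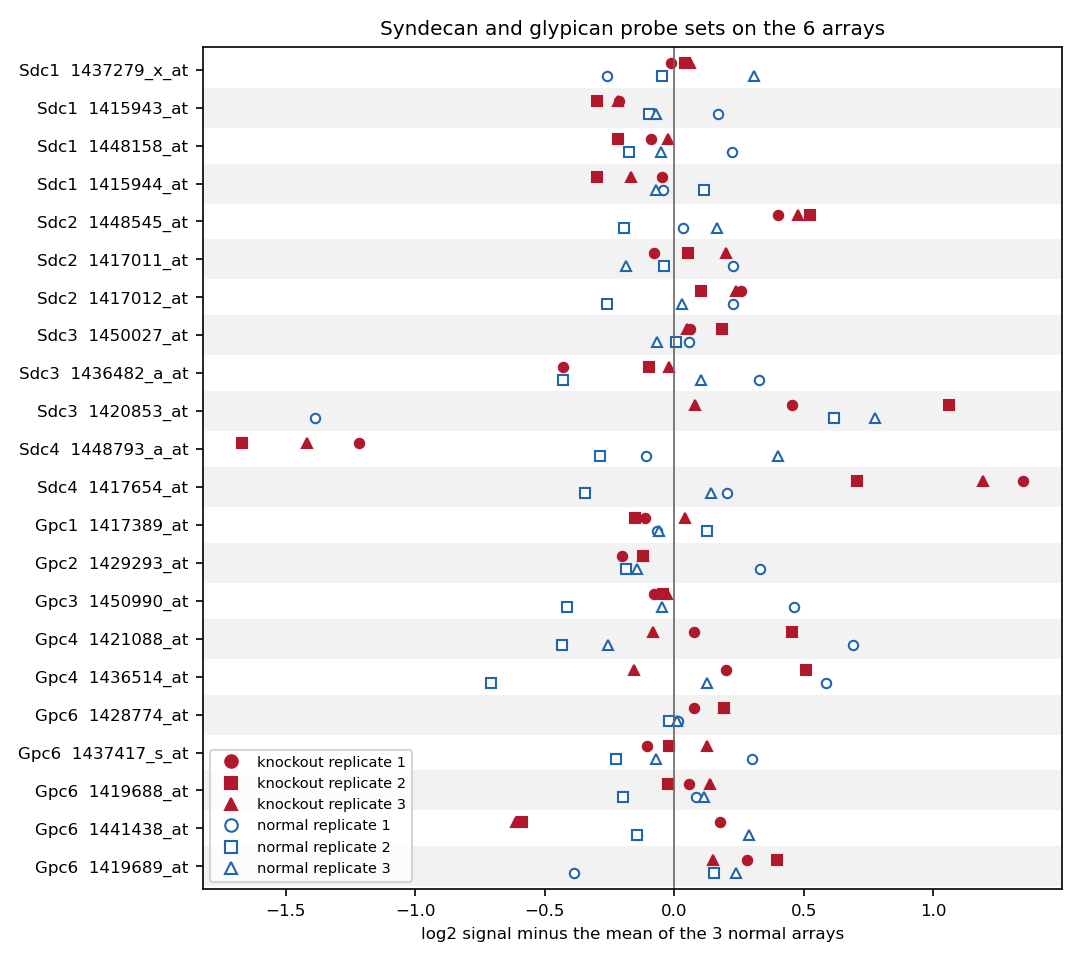
Log2 signal of the 22 kept syndecan and glypican probe sets minus the mean of the 3 normal arrays, with knockout arrays filled red and normal arrays open blue. The knockout arrays of the Sdc4 sets stand at the outer left and right, while for most other sets knockout and normal arrays overlap. Single arrays of Sdc3 1420853_at also lie far out, with normal replicate 1 at -1.39 and knockout replicate 2 at 1.06.

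Sdc2 encodes syndecan-2, found mainly on mesenchymal cells. Its probe set 1448545_at read 366, 399 and 386 in knockout replicates 1 to 3, against 283, 242 and 311 in normal replicates 1 to 3. The groups did not overlap, and the means were 384 ± 16.5 in knockout and 279 ± 34.7 in normal kidneys (SD, n = 3 each). On the log2 scale this was 0.47 higher (SE 0.12), with a limma adjusted p of 0.176, the smallest outside Sdc4 and short of the threshold. The same transcript record is given for 1417011_at, which differed by 0.06 (SE 0.13) between overlapping groups. It is given for 1417012_at as well, which differed by 0.20 (SE 0.15), also with overlap. The last Sdc2 set, 1431474_at, lay below the filter with signals between 0.7 and 7.3, and no change can be read from it.

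Sdc1 encodes syndecan-1, the main syndecan of epithelia, which in the early kidney is also made by mesenchyme as it condenses around the bud. Its probe set 1415943_at read 467, 440.4 and 465 in knockout replicates 1 to 3, against 609, 506 and 516 in normal replicates 1 to 3. Knockout arrays were lower without overlap, with means of 458 ± 14.96 in knockout and 544 ± 57.1 in normal kidneys (SD, n = 3 each). The log2 difference was -0.24 (SE 0.10; limma adjusted p = 0.412), with a 95% interval from -0.47 to -0.02. The other Sdc1 sets overlapped between the groups, at -0.17 (SE 0.14) for 1415944_at, -0.11 (SE 0.15) for 1448158_at and 0.03 (SE 0.14) for 1437279_x_at. The suffix _x_at marks sets with probes that may also bind other transcripts.

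Sdc3 encodes syndecan-3, known from nerve, cartilage and muscle precursors. Its brightest set, 1450027_at, read 254, 277 and 252 in knockout replicates 1 to 3, against 254, 245 and 233 in normal replicates 1 to 3. The difference was 0.10 (SE 0.10; limma adjusted p = 0.745), with an interval from -0.14 to 0.33. The set 1436482_a_at stood at -0.18 (SE 0.24), which became -0.02 without normal replicate 1, -0.06 without knockout replicate 1 and -0.40 without normal replicate 2. The dimmer set 1420853_at had the widest scatter of the 22, reading 45.6, 69.4 and 35.2 in knockout replicates 1 to 3, against 12.7, 51 and 56.9 in normal replicates 1 to 3. Its difference of 0.53 (SE 0.54) rests on normal replicate 1, and without that array it was -0.16. Knockout replicate 2, where this set was highest, also had the highest muscle signal, 7336 summed over the list, whose part in the result was not tested.

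Among the glypicans, Gpc3 encodes glypican-3, a brake on growth whose loss causes overgrowth and abnormal kidney branching in mice and humans. It read 1706, 1749 and 1766 in knockout replicates 1 to 3, against 2482, 1352.5 and 1744 in normal replicates 1 to 3. The knockout arrays lay close together and inside the range of the normal ones, with means of 1740.4 ± 30.7 in knockout and 1860 ± 573 in normal kidneys (SD, n = 3 each). The log2 difference was -0.05 (SE 0.18; limma adjusted p = 0.936), with a 95% interval from -0.46 to 0.36, and it was 0.18 without normal replicate 1.

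Gpc4, the neighbouring glypican gene, encodes glypican-4, which takes part in Wnt and FGF signalling. Its brighter set, 1421088_at, read 154, 199.9 and 138 in knockout replicates 1 to 3, against 235, 108 and 122 in normal replicates 1 to 3. The dimmer set, 1436514_at, read 47.7, 59.1 and 37.3 in knockout replicates 1 to 3, against 62.3, 25.4 and 45.3 in normal replicates 1 to 3. The groups overlapped by both sets, which ordered the knockout arrays alike, with replicate 2 the highest. The log2 differences were 0.15 (SE 0.28; limma adjusted p = 0.866) and 0.18 (SE 0.35; limma adjusted p = 0.866), and without normal replicate 2 they were -0.07 and -0.17.

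Normal replicates were uneven for both X-linked glypicans in the same way. Normal replicate 1 exceeded normal replicate 2 by 1.84-fold for Gpc3, and by 2.18-fold and 2.45-fold for the Gpc4 sets, steps that 9.73%, 5.63% and 3.79% of all kept probe sets reached or passed. Markers of sex were uneven over the same arrays. Xist, the RNA of the inactive X chromosome in females, read 2392, 1557 and 1012 in knockout replicates 1 to 3, against 2660, 15 and 1262 in normal replicates 1 to 3. The Y-linked gene Eif2s3y read 68.5, 160.2 and 153 in knockout replicates 1 to 3, against 5.7, 215 and 139 in normal replicates 1 to 3. Normal replicate 1 thus had a Y-linked signal under the filter level, and normal replicate 2 had Xist close to that level. The part of embryo sex in the glypican values was not tested. Over the 416 X-linked genes tested, the median log2 step of normal replicate 1 over normal replicate 2 was 0.02, beside 0.01 over 12022 autosomal genes. In normal kidneys the sums of 5 marker lists had the order of Gpc3, highest in replicate 1 and lowest in replicate 2: stroma, endothelium, macrophage, neural and chromaffin, and muscle. The summed signal of 11 stroma genes lay between 13690 and 16741 in knockout kidneys, against 18197, 13426 and 14614 in normal replicates 1 to 3. That of 10 endothelial genes lay between 1836 and 1991 in knockout kidneys, against 2483, 1670.3 and 1900.4 in normal replicates 1 to 3. That of 10 macrophage genes lay between 966 and 1429 in knockout kidneys, against 1057, 468 and 795 in normal replicates 1 to 3. The neural and chromaffin sum, given above, had the widest ratio of highest to lowest array of these lists in normal kidneys. That of 8 gonad and adrenal cortex genes, Dazl included, lay between 72.2 and 109.6 in knockout kidneys, against 418, 103.5 and 99.3 in normal replicates 1 to 3. The part of these lists in the glypican values was not tested.

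**Figure D4:**
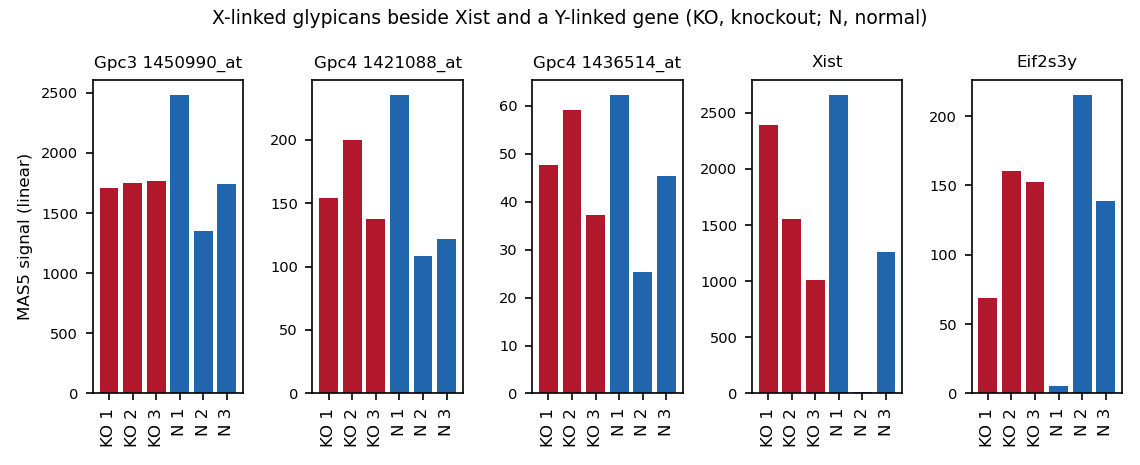
MAS5 signal (linear, axes from 0) of Gpc3, the 2 Gpc4 probe sets, Xist and the Y-linked gene Eif2s3y on each array, knockout (KO) in red and normal (N) in blue. Normal replicate 1 is the highest of the 6 arrays for both glypican genes and Xist, and normal replicate 2 is the lowest.

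Gpc6, which encodes glypican-6, a glypican of mesenchyme and skeletal growth, had 5 kept probe sets. The brightest, 1428774_at, read 840, 908 and 908 in knockout replicates 1 to 3, against 803, 784 and 800.5 in normal replicates 1 to 3. Knockout arrays were higher without overlap, but by only 0.15 (SE 0.08; limma adjusted p = 0.489), with means of 885 ± 39.3 in knockout and 796 ± 10.2 in normal kidneys (SD, n = 3 each). The other Gpc6 sets ran from -0.34 (SE 0.23) for 1441438_at to 0.28 (SE 0.19) for 1419689_at, with overlapping groups. Without normal replicate 1 the difference of 1419689_at was 0.08. That of 1441438_at became -0.60 when knockout replicate 1 was left out, and -0.22 or -0.21 when knockout replicate 2 or 3 was. It was -0.20 without normal replicate 3. In between, 1419688_at stood at 0.06 (SE 0.11) and 1437417_s_at at 0.00 (SE 0.14).

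Gpc1 encodes glypican-1, a co-receptor for FGFs. It read 311, 302.5 and 346 in knockout replicates 1 to 3, against 321, 366 and 322 in normal replicates 1 to 3. The groups overlapped and the difference was -0.07 (SE 0.11; limma adjusted p = 0.822). Gpc2 encodes glypican-2, best known from developing neurons. It read 93.5, 99 and 98.8 in knockout replicates 1 to 3, against 135, 94.5 and 97.3 in normal replicates 1 to 3. Its difference of -0.15 (SE 0.18; limma adjusted p = 0.775) rests on normal replicate 1, without which it was 0.02. For these genes the 95% intervals ran from -0.31 to 0.17 and from -0.54 to 0.25. With 3 arrays per group, true differences anywhere inside those bounds remain compatible with the data.

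The 5 lists examined held genes that build, trim, bind or use heparan sulfate, and other proteoglycan cores. Not all of those cores carry heparan sulfate. The lists were drawn from general knowledge with earlier results of these data known, and nothing is read from their shares. Of 94 distinct genes, 80 had a kept probe set, and each was represented by its brightest. In the limma fit 0 of the 80 passed in either direction, beside 0.610% of all 12464 genes tested. An unadjusted p under 0.05 was found for 14 of the 80 (17.5%), and for 1459 of all 12464 genes (11.7%). Lower values were more numerous than higher ones, 49 to 31, and the median log2 difference was -0.08, beside -0.003 over all genes tested.

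Of the 12 enzymes tested that start and lengthen the chain, 8 were lower and 4 higher, with a median of -0.07. The smallest p values belonged to B3galt6, which adds a galactose to the linker between protein and chain, and to Extl2. B3galt6 stood at -0.40 (SE 0.17; limma adjusted p = 0.418; its other sets at 0.03 and -0.16). Extl2 stood at 0.22 (SE 0.11; limma adjusted p = 0.475; its other set at 0.11). The chain polymerases Ext1 and Ext2 stood at -0.05 (SE 0.10) and -0.01 (SE 0.12). Of the 12 sulfation and trimming genes, 9 were lower and 3 higher, with a median of -0.16. Hs3st6, a 3-O-sulfotransferase, stood at -0.57 (SE 0.21; limma adjusted p = 0.377). Sulf2, which removes 6-O-sulfate from chains outside the cell, stood at 0.27 (SE 0.11; limma adjusted p = 0.396; its other sets at 0.05 and 0.08).

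Other proteoglycan core proteins had a median of -0.20, with 9 of 15 lower. Agrn, the basement membrane proteoglycan agrin, read 662, 660.2 and 724 in knockout replicates 1 to 3, against 916, 919 and 821 in normal replicates 1 to 3. Its groups did not overlap, and the difference was -0.38 (SE 0.09; limma adjusted p = 0.140). Srgn, the proteoglycan of blood cell granules, stood at 0.60 (SE 0.25; limma adjusted p = 0.418). The summed signal of 10 macrophage genes lay between 966 and 1429 in knockout kidneys and between 468 and 1057 in normal kidneys, and its part in the Srgn value was not tested.

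Partners and sheddases of the family were split evenly, with 9 of 18 higher and a median of -0.03. Prkca, the kinase bound by syndecan-4, read 118.5, 146 and 133 in knockout replicates 1 to 3, against 98.2, 90.5 and 97.1 in normal replicates 1 to 3. Its groups did not overlap, and the difference was 0.47 (SE 0.14; limma adjusted p = 0.280; its other sets at 0.19 and 0.02). Cask, a scaffold that binds the syndecan tail, stood at 0.36 (SE 0.13; limma adjusted p = 0.362; its other sets at 0.03, 0.31 and -0.18).

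Heparin-binding ligands of the kidney had a median of -0.04, with 14 of 23 lower. Wnt4, the signal that turns mesenchyme into epithelium, read 270.3, 208 and 288.5 in knockout replicates 1 to 3, against 677, 483 and 362 in normal replicates 1 to 3. Its groups did not overlap and the difference was -0.95 (SE 0.22; limma adjusted p = 0.133; its other set at -0.90). Wnt4 belongs to the renal vesicle list, and the other 9 genes of that list summed to 3204, 2711 and 2818 in knockout replicates 1 to 3, against 3582, 4086.5 and 3859 in normal replicates 1 to 3, again without overlap. Their part in the Wnt4 value was not tested. Bmp2 stood at -0.32 (SE 0.12; limma adjusted p = 0.397). With arrays centred on their medians Wnt4 passed, at -0.95 (limma adjusted p = 0.0174), the 1 gene of the 80 to do so under that scaling.

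**Figure D5:**
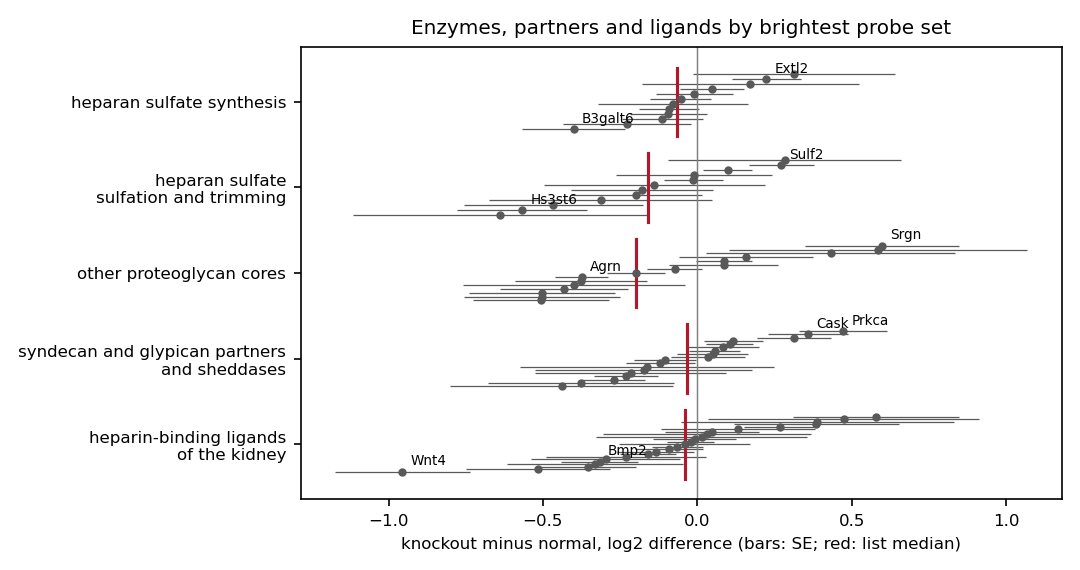
Knockout minus normal log2 difference with SE for each tested gene, by its brightest probe set, in the 5 lists of heparan sulfate genes and other proteoglycan cores. Each list's median is in red and the 2 genes of smallest p are named. The list medians run from -0.20 for other proteoglycan cores to -0.03 for partners and sheddases.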

How the data were processed

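The deposited file holds linear intensities, 1 for each probe set and array, which per the submitters' processing notes came from MAS5, with version and settings not given in the sources used here. Values were not rescaled, since array medians spanned 0.37 on the log2 scale, under a limit of 0.5. Intensities below 1.7, the 10th percentile of positive values, were raised to it before log2. Of 45101 probe sets 64 controls were left out, and 27022 with a mean log2 signal above the 40th percentile were kept. The group difference was fitted by limma 3.58.1 under R 4.3.3, using lmFit and eBayes with an intensity trend, and p-values were adjusted by Benjamini-Hochberg over all kept probe sets. The same fit was applied to the log2 ratio of the brightest to the next brightest probe set of 6085 genes. Values in brackets are standard errors, and intervals are 95% intervals of the fit.

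On simulated data the probe set fit recovered 17.9% of the probe sets altered 1.5-fold, 52.2% at 2-fold and 90.9% at 4-fold. It made 10 false calls among the unaltered of the 27022 probe sets. The ratio fit recovered 11.9%, 53.7% and 92.4% at these folds, with 6 false calls among the unaltered of the 6085 genes. The simulated noise was Gaussian, independent between features and equally wide in both groups. In the real data the median SD over all kept probe sets was 0.16 in knockout and 0.22 in normal kidneys, so these rates may not carry over.

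The members and lists were chosen with earlier results of these data known. All member probe sets are named, with, of each list, up to 4 genes past the threshold or else the 2 with the smallest p, Ctnnb1, and the 3 profiles nearest to each Sdc4 set. Other genes were named after their values were seen. Alternatives covered scaling, filter, pseudocount, variance model, array weights, the replicate number as a block, averaging of probe sets and leaving out arrays. Symbols came from the platform annotation, updated through a GRCm38.p6 gene table.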

Additional observations from a re-analysis of the deposited data

How the results depend on the processing

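Of 452 values of single probe sets, genes or probe set pairs under the alternatives, 419 kept their sign and their side of the threshold (for Sdc4, which was not tested, their size within 1 SD), 31 changed sign and 2 moved in size, both for Sdc4: its difference between probe sets was -2.13 with a pseudocount of 16, and its change was -0.18 as a mean of its sets. The brighter Sdc4 set ran from -1.58 to -1.24 and the dimmer from 0.82 to 1.37 over all alternatives. Counts of members are not given here, since Sdc4 was chosen on this comparison. Outside Sdc4 no member probe set passed under any setting. The smallest of their limma adjusted p values was 0.139, for Sdc2 1448545_at without normal replicate 3. With the replicate number as a block, 116 probe sets and 8 genes with differing probe sets passed, against 159 and 15. The titles share only a number: deviations of same-numbered arrays correlated at 0.08, -0.11 and -0.20. Centring on the median gave 456 probe sets (274 higher, 182 lower) and 1 gene of the lists of heparan sulfate genes and other proteoglycan cores. No filter gave 13 probe sets and, for differing probe sets, 8 genes. A pseudocount of 16 gave 37 such genes and array weights 8. No intensity trend gave 41 probe sets. Leaving out single arrays gave 50 to 148 probe sets and 2 to 10 genes with differing probe sets. Without normal replicate 1 and knockout replicate 2 together, chosen after seeing the data, these were 38 and 2. Fits with arrays left out rest on a smaller number of arrays, and the cause of these moves was not tested.

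Every sign change was among values that passed under no setting. Leaving out single arrays gave -0.034 to 0.17 for Sdc2 1417011_at, -0.042 to 0.11 for Gpc6 1419688_at, -0.16 to 0.92 for Sdc3 1420853_at, -0.066 to 0.49 and -0.17 to 0.48 for Gpc4 1421088_at and 1436514_at, -0.24 to 0.018 for Gpc2, -0.10 to 0.18 for Sdc1 1437279_x_at, -0.11 to 0.15 for Gpc6 1437417_s_at, -0.26 to 0.18 for Gpc3 and -0.23 to 0.10 for the Gpc4 probe set pair and 0.010 to 0.25 for that of Gpc6. Without that pair of arrays Sdc3 1420853_at was -0.43, Gpc2 0.00, Sdc1 1437279_x_at -0.11 and 1448158_at 0.054, Gpc6 1437417_s_at 0.16 and 1419688_at 0.14, Gpc3 0.18, and the Gpc4 and Gpc6 pairs 0.03 and -0.018. Array weights gave -0.076 for Sdc1 1437279_x_at, 0.034 for Gpc6 1437417_s_at, 0.0013 for Gpc3 and 0.023 for the Gpc4 pair. Centring gave 0.0079 for Gpc6 1437417_s_at, a pseudocount of 16 gave 0.010 for the Gpc4 pair, and the mean of its sets -0.12 for Sdc1.

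Other differences moved by over 1.5 times without a change of sign when 1 array was left out. Without normal replicate 1, Sdc1 1415943_at was -0.16, Sdc1 1448158_at -0.00017 and Sdc2 1417012_at 0.31. Without normal replicate 2, Sdc2 1417012_at was 0.07, Sdc1 1448158_at -0.20 and Gpc1 -0.011. Without knockout replicate 2, Sdc1 1415944_at was -0.11, Sdc1 1448158_at -0.058, Sdc3 1450027_at 0.053 and Gpc1 -0.035. Without knockout replicate 3, Gpc1 was -0.13, and without normal replicate 3, Sdc3 1450027_at was 0.064. The differences between probe sets ranged from 0.059 to 0.46 for Sdc1 (without normal replicates 1 and 3 in turn) and from 0.15 to 0.50 for Sdc3 (without normal replicates 1 and 2 in turn).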

Other observations

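Outside Sdc4, the normal arrays scattered more than the knockout arrays for 16 of the 20 kept member probe sets, where 62.6% of all kept probe sets did so. The median SD of log2 signal was 0.10 in knockout and 0.25 in normal kidneys for these members, beside 0.16 and 0.22 over all kept probe sets. Normal replicate 1 was the highest of the 6 arrays for 9 of the 20, beside 27.5% of all kept probe sets, and normal replicate 2 the lowest for 8, beside 22.2%.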
